A study of Mus musculus with 2 samples.

Results

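The genes described are 10 transcription factor and regulator genes that growth factors or cyclic AMP (cAMP) switch on quickly and that lie outside the AP-1 family: Nr4a1, Nr4a2, Nr4a3, Egr1, Egr2, Egr3, Nfil3, Srf, Myc and Ier2. They were chosen by name, with earlier results of these data known. Their probe sets are those to which the platform annotation gives exactly 1 gene symbol. This gave 14 probe sets for 10 genes, of 20380 probe sets for 12393 genes on the arrays. Of the 10 genes, 7 were measured and 3 (Nr4a3, Egr2 and Egr3) stayed below the floor on signal defined further on. RNA came from NIH 3T3, an established mouse embryonic fibroblast line, 48 hours after plasmid transfection with Lipofectamine. One culture received a plasmid for HA-tagged ATCE1 lacking its C-terminus, called ATCE1-C-del and described by the submitters as the form found in the nucleus. The other received the vector alone. In both plasmids the promoter is, by the plasmid name, the viral CMV promoter. The sources used here do not give the share of cells that took up DNA. There was 1 array per culture, so values carry no replicate error and nothing was tested.

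As background, these genes belong to the first wave of transcription that a signal sets off in fibroblasts. cAMP activates protein kinase A, which phosphorylates CREB family proteins bound at cAMP response elements, while growth factors act through MAP kinases on Srf and its partners at CArG boxes. ATCE1, whose gene is now named Creb3l4, is a basic leucine zipper protein of the CREB3 group, so genes with such elements were examined after its expression. Whether ATCE1-C-del binds these elements, or responds to protein kinase A, was not tested. The first wave is usually brief, and RNA taken 2 days after transfection shows a standing level, not an induction course.

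The promoters show which of the elements named above lie near these genes. RefSeq promoters (build GRCm38.p6) were found for 6 of the 10 genes: Nr4a1, Nr4a2, Nr4a3, Egr2, Nfil3 and Srf. Egr1, Egr3, Myc and Ier2 had no entry in the table used. The 250 bases before the annotated start are printed below for the 4 measured genes among them and for Nr4a3, a relative below the floor, from 5′ to 3′ on the gene's strand. Capitals mark TGACG, the core of the cAMP response element, or its reverse complement CGTCA; the Egr site GCGNGGGCG or its reverse complement; and the CArG box.
Nr4a1, chr15:101266596-101266845, plus strand: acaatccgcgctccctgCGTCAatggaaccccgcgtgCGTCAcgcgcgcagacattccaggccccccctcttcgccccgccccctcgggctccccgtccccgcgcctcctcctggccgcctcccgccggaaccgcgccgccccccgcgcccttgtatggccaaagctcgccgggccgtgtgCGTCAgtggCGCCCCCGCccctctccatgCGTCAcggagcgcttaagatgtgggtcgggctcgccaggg
Nr4a2, chr2:57124004-57124253, minus strand: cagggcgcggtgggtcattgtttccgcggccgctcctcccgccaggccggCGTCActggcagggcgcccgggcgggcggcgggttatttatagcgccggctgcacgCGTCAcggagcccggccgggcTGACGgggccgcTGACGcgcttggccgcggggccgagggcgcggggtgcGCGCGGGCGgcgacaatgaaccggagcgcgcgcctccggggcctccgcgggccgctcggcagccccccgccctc
Nr4a3, chr4:48045055-48045304, plus strand: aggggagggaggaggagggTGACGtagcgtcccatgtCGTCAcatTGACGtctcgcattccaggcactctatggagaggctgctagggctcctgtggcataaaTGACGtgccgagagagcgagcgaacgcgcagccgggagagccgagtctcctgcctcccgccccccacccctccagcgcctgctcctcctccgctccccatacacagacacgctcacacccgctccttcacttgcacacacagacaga
Nfil3, chr13:52981040-52981289, minus strand: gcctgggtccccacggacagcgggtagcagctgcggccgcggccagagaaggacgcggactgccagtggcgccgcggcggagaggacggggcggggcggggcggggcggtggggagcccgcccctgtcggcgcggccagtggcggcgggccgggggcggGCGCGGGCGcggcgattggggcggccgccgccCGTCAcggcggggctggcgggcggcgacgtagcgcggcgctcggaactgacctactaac
Srf, chr17:46556163-46556412, minus strand: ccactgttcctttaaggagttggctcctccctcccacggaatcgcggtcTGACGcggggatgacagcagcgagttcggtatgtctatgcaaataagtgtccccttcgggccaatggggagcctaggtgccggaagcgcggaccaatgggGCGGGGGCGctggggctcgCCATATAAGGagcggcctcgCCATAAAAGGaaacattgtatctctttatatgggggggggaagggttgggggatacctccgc

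The core TGACG was present before at least 1 start of all 6 genes. Of the 32851 promoter windows of this length in the table, 17.8% hold it on either strand. Here and below, genes are counted over any of their starts and the share is per window, so the 2 are not counted alike. Windows of like base composition were not compared. Nr4a1, Nr4a2 and Nr4a3 each held 4 cores, a number reached or passed by 0.137% of all windows; this count of 4 was chosen after the matches were seen. Nfil3 and Srf held 1 core each, and Egr2 held 2 at 3 of its 5 annotated starts and 0 at the other two. The full palindrome TGACGTCA, which would count as 2 overlapping cores, was in 0 of the 6 genes and in 1.55% of all windows. CArG boxes, the binding sequence of Srf, were found before Srf itself, at 2 places between positions -82 and -53 from the start, and before Egr2. Of all windows, 1.47% hold a CArG box. The Egr site was before Nr4a1, Nr4a2, Nfil3 and Srf, against 4.70% of all windows. The Nr4a monomer site AAAGGTCA was in 0 of the 6 genes and in 1.34% of windows, and the E-box CACGTG, the element that Myc and Max bind, was before 1 Egr2 start and in 6.02% of windows. A match is a string of letters and does not show binding.

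**Figure D1:**
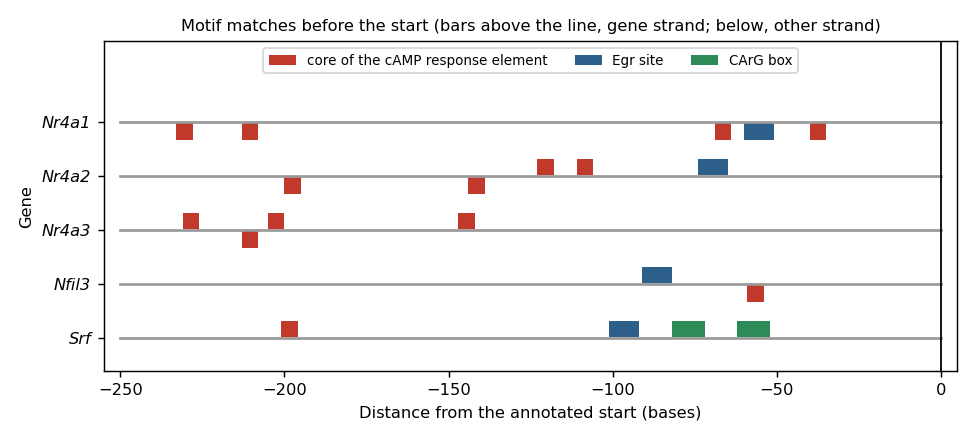
Positions of motif matches in the 250 bases before the annotated start of 5 genes; the horizontal axis is the distance from the start in bases, and bars stand above the line for matches on the gene's strand and below it for the other strand. Nr4a1, Nr4a2 and Nr4a3 each carry 4 cores of the cAMP response element, and Srf carries 2 CArG boxes.

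A few facts of the arrays bear on every value. Signals are MAS5 signals, 1 per probe set and array. A floor was set at each array's median signal, 77.4 for ATCE1-C-del and 75.9 for empty vector, and a gene was measured if at least 1 array reached it. That held for 6807 genes, each read by its brightest measured probe set. Creb3l4 itself read 18.0 with ATCE1-C-del against 20.7 with empty vector, below both floors, and whether its probes match the insert is not given, so these values do not check the labels. All 14 fibroblast markers were measured, with summed signals of 66860 and 67289; 8 of them were lower with ATCE1-C-del and 6 higher, and Postn was 1.58-fold and Pdgfrb 1.36-fold lower. None of the 10 epithelial, 8 endothelial, 8 muscle and 4 adipocyte markers was measured, and 2 of 9 macrophage markers were, namely Cd14 and Cd68, with summed signals of 381 and 299 for the list. Csf1r lay just below the floor, at 76.5 with ATCE1-C-del against 59.1 on its brightest probe set, and Adgre1 and Ptprc, at 13.3 against 14.9 and 9.50 against 3.00, lay further below it. The part of these signals in the values below was not tested. The 3' to 5' signal ratio of the Actb control was 1.07 with ATCE1-C-del against 1.12 with empty vector, and that of Gapdh 0.902 and 0.772. A probe set's log2 ratio varied with an SD of 0.20 between probe sets of the same gene, over 2451 genes, and this spread leaves out all variation between cultures. The 2 probe sets compared had ratios of the same sign in only 60.2% of these genes, with a correlation of 0.29 across genes. Where both had a mean signal under 700, as the measured genes of the set did, the SD was 0.22 over 1527 genes.

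The 6 genes above the floor on both arrays, Nr4a1, Egr1, Nfil3, Srf, Myc and Ier2, had higher signals with ATCE1-C-del than with empty vector, by 1.19-fold to 1.42-fold. Their median log2 ratio was 0.42, against -0.0072 for the 6521 genes measured on both arrays, of which 48.4% were above 0. Nr4a2 was measured through ATCE1-C-del alone, which fixed its ratio above 0. With it the median over 7 genes was 0.44, against -0.0060 for all 6807 measured genes, of which 48.7% were above 0 and 51.3% below. None of the 7 reached 1.5-fold with the floor applied, where Nr4a2 is only a lower bound. That size was reached by 0.926% of all measured genes as higher and 1.07% as lower. At a lower bar, a log2 ratio of 0.32, 5 of the 6 genes measured on both arrays passed as higher, where 6.33% of all such genes did. With Nr4a2 this was 6 of 7 as higher and 0 as lower, where 6.68% of all measured genes passed as higher and 7.89% as lower. In a culture extracted whole, more RNA per cell and more cells with that RNA cannot be told apart. The 6 genes had 7 probe sets measured on both arrays, and all 7 lay above 0. Because the genes were chosen with earlier results of these data known, the shares over all genes serve as description only.

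**Figure D2:**
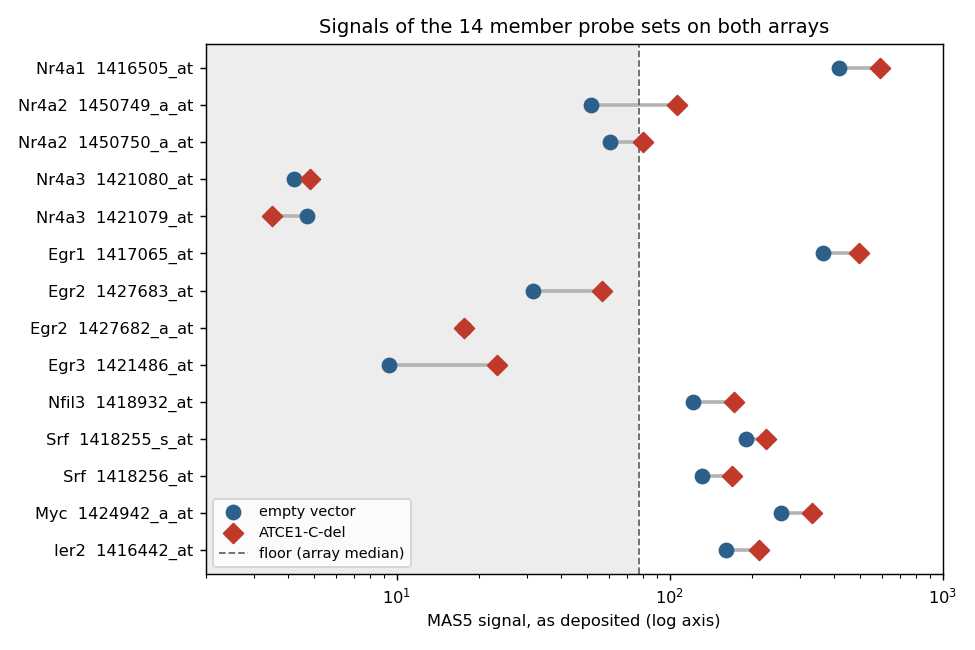
MAS5 signals as deposited (log axis) of the 14 probe sets of the 10 genes, with circles for empty vector and diamonds for ATCE1-C-del; the shaded area and the dashed line mark the floor at the array median. The diamond lies to the right of the circle for the 7 probe sets that reach the floor on both arrays and for both Nr4a2 probe sets, which reach it with ATCE1-C-del alone, while 5 probe sets of Nr4a3, Egr2 and Egr3 lie wholly below it.

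The Nr4a genes encode orphan nuclear receptors that bind DNA without a known hormone and are regulated mainly by their amount. Nr4a1, also called Nur77, read 592.1 with ATCE1-C-del against 418.3 with empty vector (probe set 1416505_at). This was 1.42-fold higher, a log2 ratio of 0.50, and placed Nr4a1 at rank 118 from the highest of 6807 measured genes. Among the 500 probe sets closest to it in signal, the middle 95% of log2 ratios ran from -0.51 to 0.50, so that Nr4a1 sat at its upper edge. Nr4a2, or Nurr1, known for its part in dopamine neurons, read 106.7 with ATCE1-C-del against 51.7 with empty vector on its brighter probe set, 1450749_a_at. Only the ATCE1-C-del signal passed the floor, so Nr4a2 was at least 1.41-fold higher, a log2 ratio of 0.49. The other Nr4a2 probe set, 1450750_a_at, read 79.8 and 60.4, just above and below the floor, which bounds it at 1.05-fold or more. Since only ATCE1-C-del passed the floor on both probe sets, neither could have shown the opposite direction. Nr4a3, or Nor1, read 4.80 against 4.20 and 3.50 against 4.70 on its 2 probe sets, with opposite order and far below the floor. Thus the 3 receptor genes, whose promoters each carry 4 cores of the cAMP response element, did not share a signal above the floor.

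The Egr genes encode zinc finger proteins that bind GC-rich sites and relay growth signals to later genes. Egr1 read 492.7 with ATCE1-C-del against 363.8 with empty vector (1417065_at). This was 1.35-fold higher, with a log2 ratio of 0.44, above the middle 95% of -0.53 to 0.38 among the 500 probe sets closest in signal. Egr2, also known as Krox20 for its part in the hindbrain and in myelinating Schwann cells, read 56.4 against 31.6 on 1427683_at and 17.6 on both arrays on 1427682_a_at. Egr3 read 23.4 against 9.40 (1421486_at). Neither Egr2 nor Egr3 reached the floor on either array, so no fold is given for them. Egr1 was thus the only Egr gene of the 3 with a measured level in these fibroblast cultures.

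Nfil3 encodes E4BP4, a basic leucine zipper repressor that binds the same sites as the activators Dbp, Tef and Hlf. Nfil3 read 172.3 with ATCE1-C-del against 122.3 with empty vector (1418932_at). It was 1.41-fold higher, a log2 ratio of 0.49, inside the middle 95% of -0.61 to 0.53 for probe sets of like signal. At this lower signal the ratios of all probe sets spread more widely than around Nr4a1 or Egr1.

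Srf, serum response factor, binds CArG boxes, including those of its own promoter printed above, and drives both growth-response and actin genes. On its brighter probe set, 1418255_s_at, Srf read 226.4 with ATCE1-C-del against 190.7 with empty vector, 1.19-fold higher, with a log2 ratio of 0.25. The other, 1418256_at, read 168.7 and 131.9, 1.28-fold higher, with a log2 ratio of 0.36. These ratios differed by less than the SD of 0.28 for the difference between a pair of probe sets of the same gene. Srf was the smallest of the 7 ratios, and 10.7% of all measured genes were higher.

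Myc, the basic helix-loop-helix factor that promotes growth and ribosome production, read 331.8 with ATCE1-C-del against 256.9 with empty vector (1424942_a_at). It was 1.29-fold higher, with a log2 ratio of 0.37, and 4.73% of measured genes were higher. Ier2, an immediate early gene whose product is a small nuclear protein, read 212.2 against 161.1 (1416442_at). It was 1.32-fold higher, a log2 ratio of 0.40, at rank 260 of 6807. Both lay inside the middle 95% of probe sets of like signal, which ran up to 0.47 for Myc and 0.54 for Ier2.

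Seen side by side, the 7 log2 ratios covered a range of only 0.25, from Srf at 0.25 to Nr4a1 at 0.50. This range is smaller than the SD of 0.28 between a pair of probe sets of 1 gene, so the order of the 7 genes was not resolved. Of the 6 genes measured on both arrays, 2 (Nr4a1 and Egr1) lay above the middle 95% of probe sets of like signal, Nr4a1 by less than 0.01. A pattern over 2 arrays is a single ratio, so no genes were ranked by likeness to these.

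**Figure D3:**
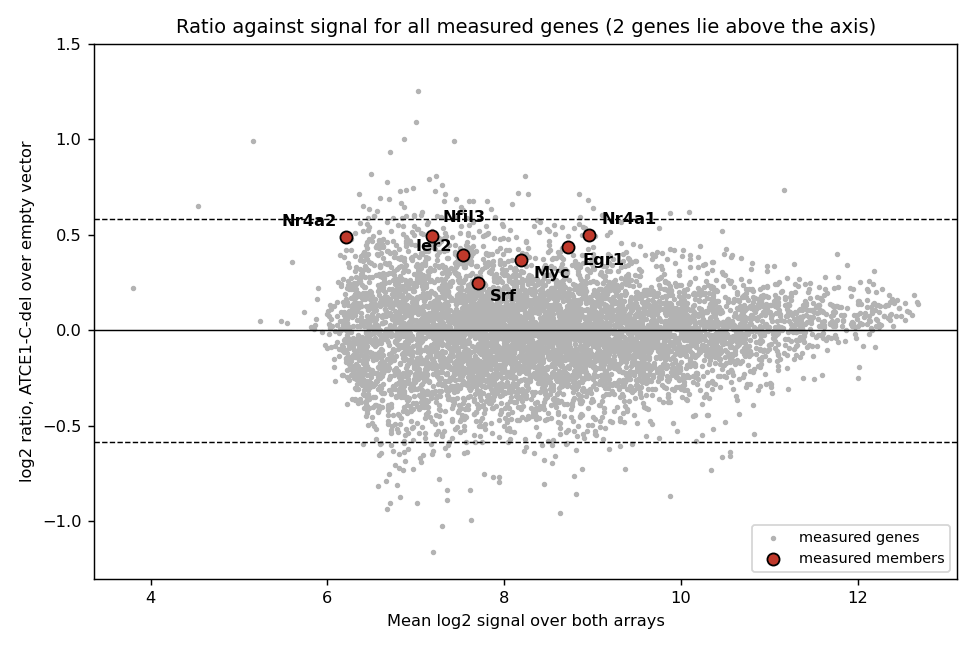
The log2 ratio of the ATCE1-C-del signal to the empty vector signal against the mean log2 signal of both arrays for the measured genes (grey) and the 7 measured genes of the set (red); dashed lines mark 1.5-fold, and 2 grey genes lie above the axis. The 7 red points all lie above 0 and below the upper dashed line, with Nr4a2 drawn at its lower bound.

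Myc target genes were mostly higher. Of 30 measured, 26 were higher and 4 lower, where 48.7% of all measured genes were higher. The median log2 ratio was 0.17, and 0 passed 1.5-fold. At the lower bar of 0.32, 5 were higher and 0 lower, where 6.68% of all measured genes passed as higher and 7.89% as lower. The list was not compared with genes of like signal, so a lean shared by bright genes cannot be told apart from one of Myc targets. Tfrc, the transferrin receptor that brings iron into growing cells, was 1.46-fold higher at 573.7 against 393.5, and its other probe sets had log2 ratios of 0.73 and, with 1 array below the floor, at least 0.10. Umps, which makes uridine monophosphate for pyrimidine synthesis, was 1.41-fold higher at 229.1 against 162.1, with a second probe set at 0.30 and a further 1 below the floor. Nop56, a core protein of the particles that methylate ribosomal RNA, was 1.31-fold higher at 882.9 against 671.7, with a second probe set at 0.31. Among the 22 Myc targets with a second measured probe set, all 22 second probe sets were higher, with a median of 0.25. Over all 2640 genes with such a second probe set, 52.2% were higher. Probe sets of 1 gene can share oligonucleotides, so the second set is not a separate experiment.

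Partners and antagonists of Myc leaned the other way on their brightest probe sets only. Of 15 measured, 10 were lower and 5 higher, where 51.3% of all measured genes were lower. The median ratio was -0.11 (log2). Mnt, which pairs with Max and represses Myc sites, was 1.45-fold lower at 329.9 against 479.5. Trrap, a large scaffold that Myc recruits with histone acetyltransferases, was 1.26-fold lower at 363.1 against 456.3. Mga, another Max partner, was at least 1.26-fold lower, with signals of 74.7 and 97.8, the first below the floor. Max, the obligate partner of Myc, stood at a log2 ratio of -0.13. Mxi1 stood at -0.11 on its brightest probe set and 0.35 on the other. Among the 7 of the 15 with a second measured probe set, the median was -0.00056 on the brightest probe sets and 0.06 on the second, where 5 of the 7 were higher. Named after their values were seen, the second probe sets of Mxd4, a Max partner that opposes Myc, and of Mycbp, a Myc-binding protein, stood at -0.83 and -0.51, and their brightest at -0.24 and 0.08.

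Genes linked to Nfil3 through shared binding sites or the circadian clock had the lowest median of the 9 lists, -0.23. Of 13 measured, 8 were lower and 5 higher, where 51.3% of all measured genes were lower. Hlf, an activator that competes with Nfil3 for sites, was 1.43-fold lower at 352.6 against 505.3, yet its other probe set was level at -0.0044. Dbp, a second such activator, was 1.35-fold lower at 177.2 against 238.6, and its other probe set read 94.8 against 134.1, a log2 ratio of -0.50. The clock repressor gene Cry1 was 1.42-fold lower at 77.6 against 109.9, close to the floor. Nr1d1, which encodes the clock repressor Rev-erb alpha, was 1.22-fold lower at 78.1 against 95.3. The casein kinase gene Csnk1d, which set the median, was read by 5 probe sets with log2 ratios from -0.23 to 0.53, and was named after its values were seen. With the mean over all probe sets of a gene the list median was -0.071.

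Srf cofactors stayed close to level, and Srf targets leaned higher by small amounts. Of 5 measured cofactors, 3 were lower and 2 higher, with a median of -0.05. The ternary complex factor Elk4, which binds beside Srf, stood at -0.20, Elk3 at 0.07 and Elk1 at -0.05, with 1 Elk1 array below the floor. Mrtfa, the actin-regulated coactivator of Srf, stood at -0.20. Of 16 measured Srf target genes of the actin and matrix type, 12 were higher and 4 lower, with a median of 0.11. On these brightest probe sets 0 passed 0.32 in either direction. Of all measured genes, 48.7% were higher, and 6.68% passed 0.32 as higher and 7.89% as lower. Among the 8 targets with a second measured probe set, 6 second probe sets were higher, with a median of 0.14. Over all genes with such a second probe set, 52.2% were higher. This list too was not compared with genes of like signal. Thbs1, which encodes the matrix protein thrombospondin 1, was 1.18-fold higher, and its second probe set gave a log2 ratio of 0.30. The tropomyosin gene Tpm4 was also 1.18-fold higher, and Tagln, an actin-binding protein gene of smooth muscle, was 1.24-fold lower. On brightest probe sets Tagln had the largest absolute ratio of these targets. The second probe set of Actb, named after its values were seen, was 1.62-fold higher at 170.5 against 105.2, while its first stood at a log2 ratio of 0.17.

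Egr corepressors and targets were split evenly, with 5 of 10 measured higher, 5 lower and a median of -0.01. Nab2, a corepressor whose own gene Egr1 can activate, was 1.12-fold higher at 1085 against 970.4, and Nab1 stood at -0.03 and, on its second probe set, -0.22. F3, which encodes tissue factor, and Tgfb1 were 1.14-fold lower each. Hbegf, a growth factor of the EGF family, was at least 1.12-fold higher, at 85.0 against 40.7, the latter below the floor. On brightest probe sets none of the 10 passed a log2 ratio of 0.32 in either direction, where 6.68% of all measured genes passed as higher and 7.89% as lower. The second probe set of Cd44, a cell surface receptor for hyaluronan named after its values were seen, was 1.44-fold higher, while its brightest stood at -0.04. Of 6 measured partners and cofactors of the Nr4a receptors, 1 was higher and 5 were lower, with a median of -0.04. Beside both lists, 48.7% of all measured genes were higher and 51.3% lower. Rxra, a receptor with which Nr4a1 and Nr4a2 can pair, stood at 0.21 and 0.0055 on its 2 measured probe sets, Crtc3, a CREB coactivator, at -0.23, and Rxrb at -0.11.

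Other immediate early genes were mixed. Of 28 measured, 16 were higher and 12 lower, where 48.7% of all measured genes were higher. The median ratio of the 28 was 0.09 (log2). As higher, 1 passed 1.5-fold and 5 passed a log2 ratio of 0.32, and 1 passed it as lower. Of all measured genes, 0.926% passed 1.5-fold as higher, while 6.68% passed 0.32 as higher and 7.89% as lower. Among the 14 early genes with a second measured probe set, the median was -0.033 on the brightest and -0.035 on the second. On the second probe sets 6 of the 14 were higher, where 52.2% of all second probe sets were. Ptgs2, the inducible cyclooxygenase gene and a classical cAMP target, was 1.65-fold higher at 365.4 against 221.9, and its other probe set read 303.4 against 155.0. Btg2, an antiproliferative early gene, was 1.42-fold higher at 161.4 against 113.6, with a second probe set at least 1.21-fold higher. Id1, which blocks basic helix-loop-helix factors, was 1.32-fold higher at 108.9 against 82.7. Whether the 7 genes differ from the other immediate early genes was not tested.

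Kinases and coactivators upstream of Srf and CREB had 5 of 12 higher, 7 lower and a median of -0.00068. Of all measured genes, 48.7% were higher and 51.3% lower. At the lower bar, 1 of the 12 passed as higher and 1 as lower. That bar was passed by 6.68% of all measured genes as higher and 7.89% as lower. Crebbp, the acetyltransferase that CREB recruits, was 1.34-fold lower at 82.3 against 110.2. Creb1 stood at a log2 ratio of -0.29 on its brightest probe set, and at least 0.45 on another with 1 array below the floor, so its direction was not settled. Prkar2a, a regulatory subunit of protein kinase A, was 1.29-fold higher at 132.6 against 103.1.

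**Figure D4:**
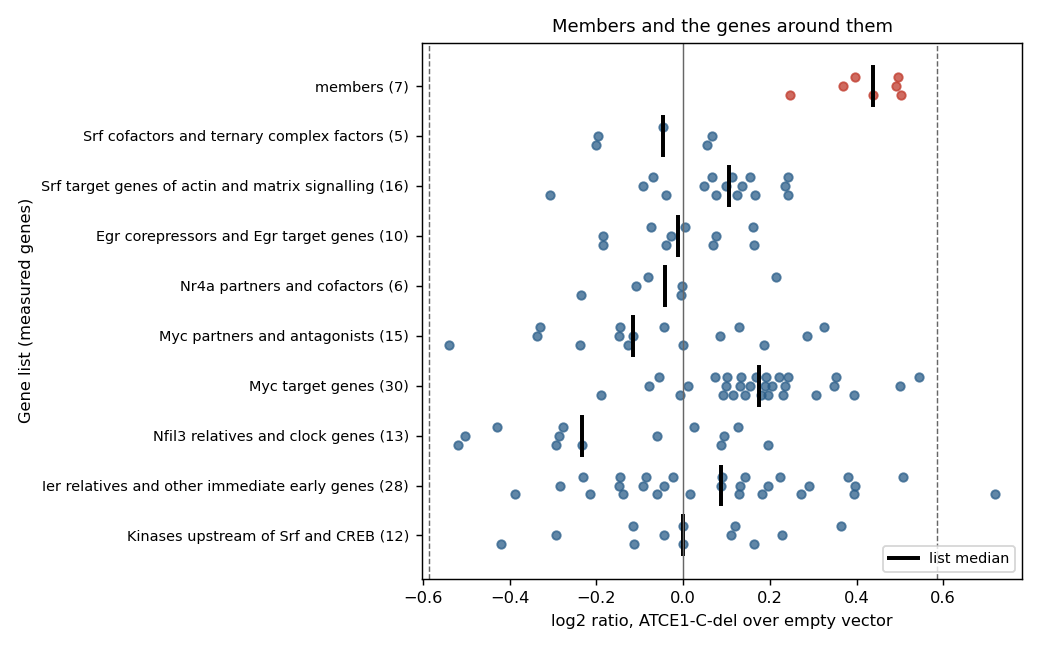
The log2 ratio of each measured gene (points) by gene list, with the list median as a black bar and the number of measured genes in parentheses; dashed lines mark 1.5-fold. The 7 genes of the set in the top row lie between 0.25 and 0.50, with Nr4a2 drawn at its lower bound. Myc targets centre on 0.17 and the Nfil3 and clock list on -0.23.

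All of these ratios are relative to the other transcripts, because the arrays were scaled to the same mean. Transcripts spiked into the hybridisation mix, read by 18 control probe sets, gave a median ratio of -0.25 (log2). Scaling to them moved the median of all measured genes to 0.24 and that of the 7 genes to 0.68, and 6 of the 7 then passed 1.5-fold, where 5.98% of all measured genes did. This scaling adds the same amount to every ratio. On that scale the Myc partner list had a median of 0.13 and the Nfil3 and clock list 0.012, so the direction of small negative ratios given above depends on the scaling.

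**Figure D5:**
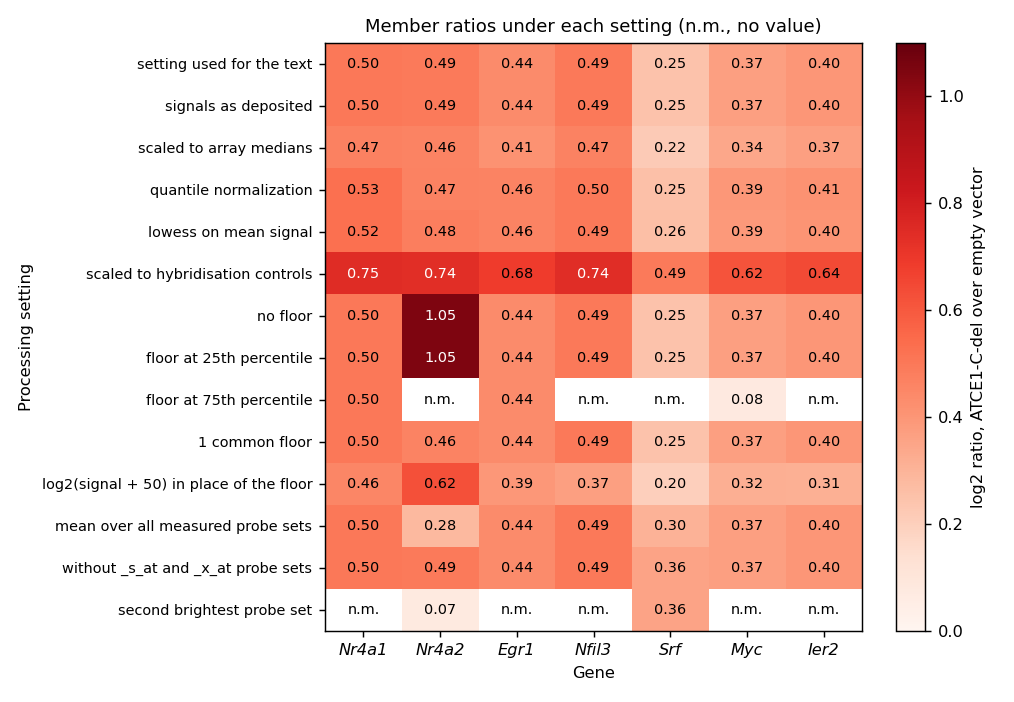
The log2 ratio of the ATCE1-C-del signal to the empty vector signal for the 7 measured genes (columns) under the setting used for the text and 13 alternatives (rows), with n.m. where a gene had no value; darker red is higher. Every value shown is above 0, from 0.07 for Nr4a2 on its second probe set to 1.05 for Nr4a2 without the floor.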

How the data were processed

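Expression was measured on 2 Affymetrix arrays, 1 per culture. Per the submitters' processing notes the authors used MAS5 (no version named), and the deposited values are linear intensity, 1 signal per probe set. The sources used here do not give its target value or detection calls; the mean after trimming 2% at each end was 250.1 on both arrays. Of 22690 probe sets, 64 controls were left out. Names came from the platform annotation: 1 symbol for 20380 of the others, several for 691, none for 1555. Entrez IDs matched to RefSeq changed 0 symbols.

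Arrays were divided by their trimmed means. Signals below their array's median were set to it, and the log2 ratio of ATCE1-C-del to empty vector was taken. A fold with 1 array under the floor is a lower bound. The brightest measured probe set stood for a gene. With 1 array per group there was no test; genes were counted at 1.5-fold and, as an alternative, at a log2 ratio of 0.32. The number of arrays limits the precision.

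The members and the 9 gene lists were chosen with earlier results of these data known. Named genes were all members, up to 3 genes per list with the largest absolute ratio, and a few partners or relatives of members fixed by name (such as Max, Nab1 and Nr1d1); exceptions are stated. Promoter sequences are from RefSeq. The procedure was tested on simulated data. Neither the settings nor the outcome of that test is given here, so it lends no support to the ratios above. Alternatives covered scaling, floor, log scale, threshold and probe set choice. Software was matplotlib 3.10.9, statsmodels 0.14.6, scipy 1.17.1, pandas 2.3.3 and numpy 2.4.6 under Python 3.11.15.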

Additional observations from a re-analysis of the deposited data

How the results depend on the processing

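The 7 measured genes kept log2 ratios above 0 under each of the 13 alternatives that gave them a value, which for Nr4a2 the floor fixes in most of them. Of 82 values, 70 moved by less than 0.20 (log2), the SD between probe sets of a gene, 12 moved by more and 0 changed sign. The median of 0.44 became 0.68 with scaling to the hybridisation controls and 0.21 on second brightest probe sets, which only Nr4a2 and Srf have. The count past 1.5-fold, 0 in the text, was 6 with scaling to the hybridisation controls, 1 (Nr4a2) with no floor and 1 with log2(signal + 50), 3 (Nr4a2, Egr2 and Egr3) with the floor at the 25th percentile, where 8.09% of all genes passed, and 6 at the lower threshold, a log2 ratio of 0.32. With the floor at the 75th percentile only Nr4a1, Egr1 and Myc were measured, and the ratio of Myc, with its empty vector signal raised to the floor, was 0.08. No count of lower genes differed from 0. With a single array in each group, no replicate could be left out. No paired analysis was possible because the labels give 1 sample per group. Signals near the floor limit Nr4a2, Egr2 and Egr3.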

Other observations

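Tef, the third activator that shares binding sites with Nfil3, lies outside the naming rule and was chosen after its values were seen. Its signal was 226.7 with ATCE1-C-del against 274.6, 1.21-fold lower, and its other probe sets were below the floor. On their brightest probe sets Dbp, Hlf and Tef thus all had lower signals in the ATCE1-C-del culture, and Nfil3 a higher one. Also named after their values were seen, the feedback genes Zfp36, whose product destabilises early messages, and Ier3 were 1.31-fold and 1.30-fold higher, whereas Ier3ip1, which shares a name with Ier3 but acts in the endoplasmic reticulum, was 1.31-fold lower at 331.9 against 434.0. Fbxw7, the ubiquitin ligase subunit that targets Myc for degradation, stood at a log2 ratio of 0.33 on its brightest probe set and 0.06 on the other.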
